A study of Mus musculus with 8 samples.

Results

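The antioxidant defence genes described here are Sod1, Sod2, Cat, Gpx1, Gpx4, Prdx3, Txn2, Txnrd1, Nfe2l2 and Hmox1, 10 of the 45777 genes in the deposited count table. They were taken from a fixed list by their symbols in the authors' table of regularized log2 values and joined to the counts by gene ID; the rule itself uses no measured value. All 10 were found, and all 10 were among the 16750 genes that passed the filter on low counts. RNA-seq had been done on primary CD8+ T cells, the cytotoxic arm of the T cell compartment, purified from lymph node and spleen of C57BL/6 mice. All cells, controls included, had been stimulated through the T cell receptor with antibodies against CD3 and CD28. They were kept for 48 h with EnPGC-1, with Ctrl PIP, with SGC-CBP30, which is known to block the bromodomains of the coactivators CBP and p300, or with DMSO as the vehicle, and there were 2 libraries in each of the 4 groups. The sample titles use the term PIP only for Ctrl PIP. The labels give no doses, and say neither the age of the mice nor whether the libraries of a group came from separate animals. The compounds therefore could not be matched by dose, and p-values reflect the spread of the libraries at hand, which may be technical. There are no unstimulated cells among the groups, so the effect of stimulation on these genes cannot be read from the data.

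Respiring mitochondria leak electrons onto oxygen and so form superoxide, and activated T cells both need this signal and have to limit it. Superoxide dismutases turn superoxide into hydrogen peroxide: SOD1 uses copper and zinc in the cytosol and the space between the mitochondrial membranes, and SOD2 uses manganese in the matrix. Catalase splits the peroxide directly, glutathione peroxidases reduce it with glutathione, and peroxiredoxins reduce it with electrons passed on by thioredoxins and thioredoxin reductases. NRF2, encoded by Nfe2l2, is the transcription factor that raises many of these genes when its inhibitor KEAP1 is inactivated, and haem oxygenase 1, encoded by Hmox1, is among its best known targets. PGC-1 coactivators, for which EnPGC-1 is named, are known from other tissues to raise mitochondrial antioxidant enzymes together with mitochondrial biogenesis, which makes these genes a readout of interest here.

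NRF2 binds with small MAF proteins to the antioxidant response element. Its core, TGACNNNGC (GCNNNGTCA on the other strand), was searched on both strands of RefSeq promoter windows, from 250 bases before to 50 bases after a gene's start on GRCm38.p6. The core can contain the AP-1 motif TGACTCA. Of the 10 genes 9 had a window, with 14 windows in all because of alternative starts, and 3 of the 9 genes had a match. The share among all 27025 genes with a window was 14.0%, and among all 32851 windows it was 12.4%. The matches are shown because they place this core beside 3 members of different roles: the gene for NRF2 itself, a thioredoxin reductase and a superoxide dismutase. Capitals mark the core, the strand is the gene's own, and the sequences read 5′ to 3′.
Nfe2l2, chr2:75704875-75704913, minus strand: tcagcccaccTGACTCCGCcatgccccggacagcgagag
Txnrd1, chr10:82859094-82859142, plus strand: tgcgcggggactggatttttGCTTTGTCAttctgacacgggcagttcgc
Sod1, chr16:90220686-90220734, plus strand: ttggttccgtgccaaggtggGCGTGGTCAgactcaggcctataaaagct
The cores begin 240, 92 and 56 bases upstream of the start they belong to, and the Txnrd1 match lies before an alternative start inside the gene. A match is a run of letters and was not measured as a binding site.

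Before the values, the libraries themselves have to be described. Total counts ranged from 38890043 to 55491261 per library, and the summed CPM (counts scaled to a common library size, with TMM factors) of 10 CD8 T cell markers ranged from 4218 to 5984. Markers of other cells were lower and uneven: the summed CPM of 12 B cell markers ranged from 663 to 1043, that of 7 neutrophil markers from 0 to 58.5, that of 11 erythroid and platelet markers from 7.91 to 85.9, that of 15 myeloid markers from 9.96 to 27.0, that of 8 NK cell markers from 43.0 to 83.1 and that of 4 CD4 T cell markers from 14.8 to 38.7. Of these, Marco and Spic among the myeloid and Klra4 among the NK cell markers were at 0 in all 8 libraries, and the highest neutrophil, erythroid and myeloid sums were all in EnPGC-1 replicate 1. The libraries also differed in how level depended on transcript length. Over 9299 well expressed genes, Spearman's rho between transcript length and a library's deviation from the mean of all 8 was 0.59 and -0.64 in the DMSO replicates and 0.50 and -0.55 in the EnPGC-1 replicates. In the SGC-CBP30 replicates it was 0.56 and 0.51, and in those of Ctrl PIP -0.54 and -0.20. Replicates of DMSO and of EnPGC-1 thus lay on opposite sides of this trend, while Ctrl PIP and SGC-CBP30 lay on opposite sides as groups.

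No antioxidant gene passed the test in any comparison. edgeR's quasi-likelihood test with Benjamini-Hochberg adjustment at 0.05 over the 16750 genes called 0 of the 10 in EnPGC-1 against DMSO, in Ctrl PIP against DMSO, in SGC-CBP30 against DMSO, in EnPGC-1 against Ctrl PIP, in EnPGC-1 against SGC-CBP30 and in SGC-CBP30 against Ctrl PIP. It called 0% of all genes in each of these comparisons. At an unadjusted p under 0.05 it listed 0 of the 10 beside 2.61% of all genes in EnPGC-1 against DMSO, 0 beside 0.597% in Ctrl PIP against DMSO and 0 beside 4.39% in SGC-CBP30 against DMSO. It listed 1 (Txnrd1) beside 4.48% in EnPGC-1 against Ctrl PIP, 0 beside 2.03% in EnPGC-1 against SGC-CBP30 and 1 (Txnrd1) beside 3.99% in SGC-CBP30 against Ctrl PIP. DESeq2's Wald test called 0 of the 10 in all 6 comparisons. The 95% intervals of this fit, in which all 8 libraries share the spread, were wide, with SE from 0.21 to 0.75 on the log2 scale. The values below are therefore levels and fitted differences, none of which passed the adjusted threshold unless a sentence names another fit that called it.

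All 10 genes were expressed in every library, at very different levels. Divided by the length of the longest protein-coding transcript, the mean level over the groups was 376 CPM per kb for Sod1, 146 for Gpx1, 128 for Gpx4, 62.1 for Prdx3 and 57.6 for Txn2. It was 35.9 CPM per kb for Txnrd1, 35.4 for Cat, 18.2 for Nfe2l2, 7.45 for Sod2 and 2.27 for Hmox1. Cytosolic superoxide dismutase and the glutathione peroxidases thus led, and the matrix dismutase Sod2 and the inducible Hmox1 closed the list. Sod1 was above Gpx1 in 8 of 8 libraries, by 2.05 to 3.40 times. Gpx1 and Gpx4 were not set apart, since Gpx1 was higher in 6 of 8 libraries, and Prdx3 was above Txn2 in 6 of 8. Txnrd1 was above Cat in 3 of 8 libraries, so this pair had no order either. The other neighbours in the order (Gpx4 above Prdx3, Txn2 above Txnrd1, Cat above Nfe2l2, Nfe2l2 above Sod2 and Sod2 above Hmox1) held in 8 of 8 libraries. The low place of Sod2 rests in part on the 5861 bases of its longest transcript, since a shorter form of the message would raise its level per kb.

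**Figure D1:**
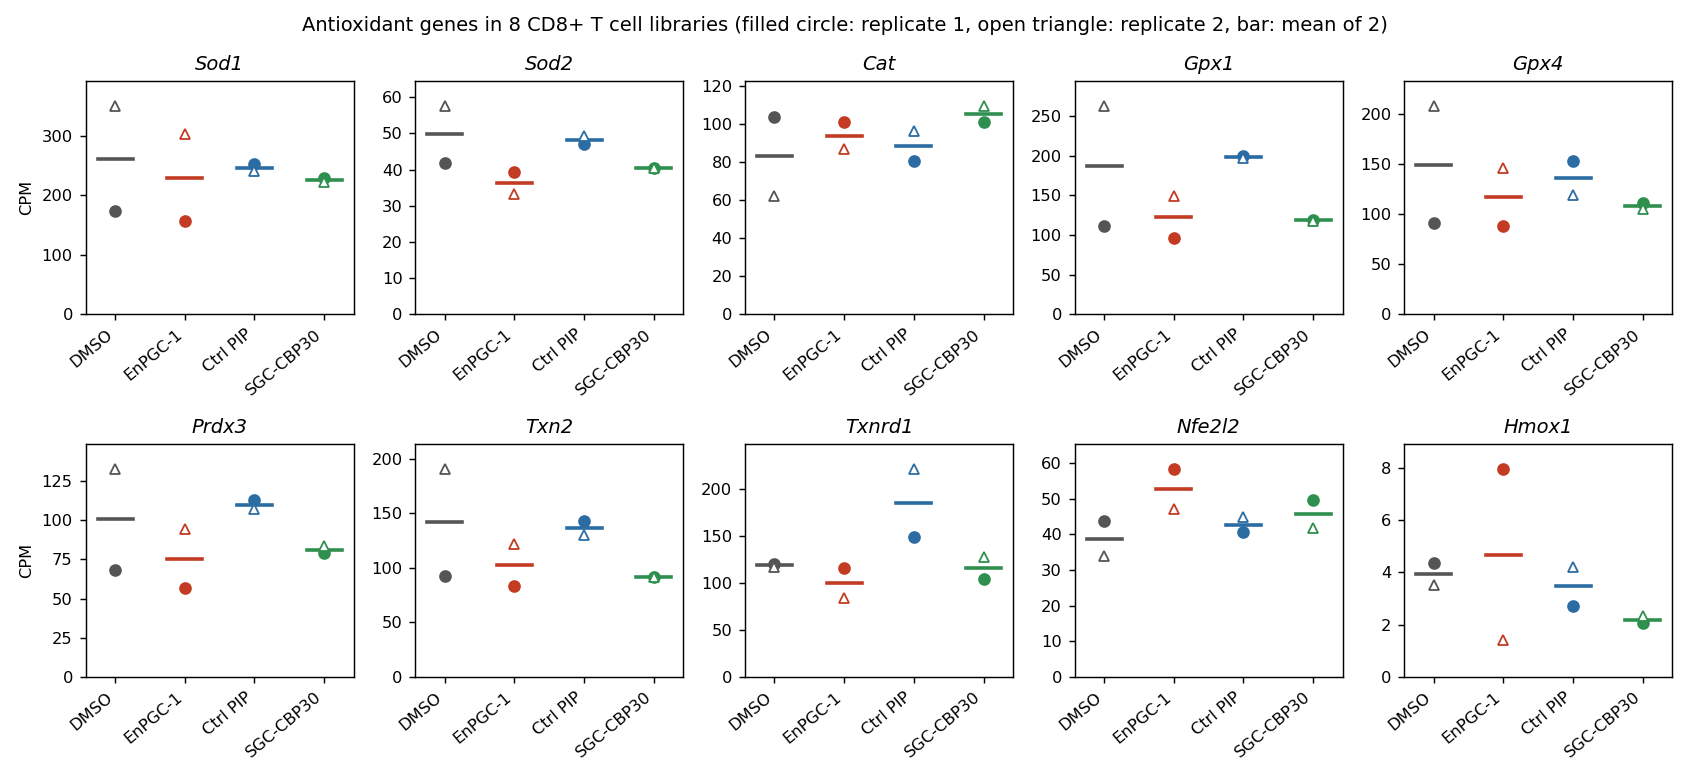
Level of each gene in CPM (y axis, from 0, a separate scale per gene) in the 4 groups (x axis); filled circles are replicate 1, open triangles replicate 2 and bars the mean of the 2 libraries. Sod1, Gpx1, Gpx4, Prdx3 and Txn2 share one picture, with DMSO replicates far apart and SGC-CBP30 replicates close together, and Txnrd1 is highest in the Ctrl PIP libraries.

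Sod1 (Entrez gene 20655, chr16:90220762-90226333), the copper and zinc dismutase, had 173 CPM in DMSO replicate 1 and 351 in replicate 2, 253 and 241 with Ctrl PIP, 229 and 223 with SGC-CBP30 and 156 and 304 with EnPGC-1. The DMSO replicates differed 2.02-fold and the EnPGC-1 replicates 1.94-fold, more than any pair of group means. The fitted log2 difference from DMSO was -0.19 (SE 0.42) with EnPGC-1, -0.09 under Ctrl PIP and -0.21 under SGC-CBP30, with intervals from -1.19 to 0.81, from -1.09 to 0.91 and from -1.21 to 0.79. Sod1 therefore had no direction under EnPGC-1, and the sign turned to 0.41 without DMSO replicate 2 and to 0.09 with offsets for transcript length and GC content.

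Sod2 (Entrez gene 20656, chr17:13007839-13018119), the manganese dismutase of the matrix, had 41.9 and 57.6 CPM with DMSO, 46.9 and 49.4 with Ctrl PIP, 40.5 and 40.4 with SGC-CBP30 and 39.2 and 33.3 with EnPGC-1. Both EnPGC-1 libraries lay below both DMSO libraries, beside 9.24% of all genes, and below both Ctrl PIP libraries, beside 21.7%. They also lay below both SGC-CBP30 libraries, beside 14.7% of all genes, with 39.2 CPM at most against 40.4 at least. The share of genes below all of these libraries at once was not computed. The EnPGC-1 mean was 36.3 ± 4.20 CPM (SD, n = 2) against 49.7 ± 11.1 with DMSO, a fitted log2 difference of -0.45 with a 95% interval from -0.96 to 0.05 (edgeR's quasi-likelihood test, adjusted p = 0.998). Against Ctrl PIP it was -0.41, with an interval from -0.92 to 0.10. The sign stayed negative in all alternative fits run for these comparisons and also for SGC-CBP30 against DMSO, where the difference was -0.30. The fit on replicate 2 of both groups, in which the spread comes from the other 4 libraries, called Sod2 lower in EnPGC-1 than in DMSO at -0.79 (adjusted p = 0.0347), and the fit on replicate 1 gave -0.09. Offsets for length and GC content moved it from -0.45 to -0.63 with no call.

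Cat (Entrez gene 12359, chr2:103453904-103485153), catalase of the peroxisomes, ran the other way from most of the group. It had 104 and 62.1 CPM with DMSO, 80.3 and 95.9 with Ctrl PIP, 101 and 109 with SGC-CBP30 and 101 and 86.5 with EnPGC-1. DMSO replicate 2, which was the highest library of Sod1, Sod2, Gpx1, Gpx4, Prdx3 and Txn2, was the lowest library of Cat. The fitted difference from DMSO was 0.18 with EnPGC-1, 0.09 with Ctrl PIP and 0.34 with SGC-CBP30, with SE 0.27 in each case. Without DMSO replicate 2 these differences became -0.15, -0.23 and 0.02. Both SGC-CBP30 libraries lay above both Ctrl PIP libraries, beside 31.5% of all genes. The fitted difference was 0.25, with an interval from -0.40 to 0.91.

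Gpx1 (Entrez gene 14775, chr9:108339080-108340342), the abundant selenium-containing glutathione peroxidase, had 111 and 263 CPM with DMSO, 199.7 and 197 with Ctrl PIP, 119 and 118 with SGC-CBP30 and 96.7 and 149 with EnPGC-1. The Ctrl PIP replicates and the SGC-CBP30 replicates each agreed within 1.01-fold, whereas the DMSO replicates differed 2.37-fold. The group means were 187 ± 107 CPM (SD, n = 2) with DMSO, 123 ± 37.1 with EnPGC-1, 198 ± 1.88 with Ctrl PIP and 118 ± 0.829 with SGC-CBP30. The fitted log2 difference was -0.60 (interval from -1.60 to 0.39) for EnPGC-1 against DMSO, -0.66 for SGC-CBP30 against DMSO, -0.69 for EnPGC-1 against Ctrl PIP and -0.74 (interval from -1.74 to 0.25) for SGC-CBP30 against Ctrl PIP. Both libraries of EnPGC-1 lay below both of Ctrl PIP, beside 21.7% of all genes, and both of SGC-CBP30 did, beside 30.2%. Against DMSO the sign rested on DMSO replicate 2, without which the values were 0.15 for EnPGC-1 and 0.10 for SGC-CBP30.

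Gpx4 (Entrez gene 625249, chr10:80047166-80056439), which reduces lipid peroxides in membranes and so guards against ferroptosis, had 90.8 and 208 CPM with DMSO, 153 and 119 with Ctrl PIP, 111 and 106 with SGC-CBP30 and 88.3 and 146 with EnPGC-1. The span of the DMSO libraries covered every other library except EnPGC-1 replicate 1. The fitted difference from DMSO was -0.35 under EnPGC-1, -0.14 under Ctrl PIP and -0.46 under SGC-CBP30, each with SE 0.43. Without DMSO replicate 2 these became 0.37, 0.58 and 0.26, so Gpx4 had no direction against DMSO. For SGC-CBP30 against Ctrl PIP the difference was -0.33, and from -0.50 to -0.15 as libraries were left out. With offsets for length and GC content it was 0.03.

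The mitochondrial peroxidase pair also had DMSO replicates far apart. Prdx3 (Entrez gene 11757, chr19:60864066-60874538), the peroxiredoxin of the matrix, had 68.2 and 133 CPM with DMSO, 113 and 107 with Ctrl PIP, 78.9 and 83.5 with SGC-CBP30 and 56.7 and 94.4 with EnPGC-1. Txn2 (Entrez gene 56551, chr15:77915051-77928994), the mitochondrial thioredoxin that hands electrons to PRDX3, had 92.6 and 191 CPM with DMSO, 143 and 129.9 with Ctrl PIP, 91.90 and 91.8 with SGC-CBP30 and 82.9 and 122 with EnPGC-1. In both genes the EnPGC-1 libraries lay below both Ctrl PIP libraries, beside 21.7% of all genes. The SGC-CBP30 libraries also lay below them, beside 30.2%. Against Ctrl PIP the EnPGC-1 difference was -0.54 for Prdx3 and -0.41 for Txn2, and it stayed below 0 as libraries were left out (from -0.98 to -0.19 and from -0.77 to -0.11), whereas Gpx4 in that comparison ranged from -0.79 to 0.28. The fitted difference between EnPGC-1 and DMSO was -0.41 for Prdx3 and -0.47 for Txn2, and without DMSO replicate 2 it was 0.15 and 0.14. For SGC-CBP30 against Ctrl PIP it was -0.44 (interval from -1.32 to 0.45) for Prdx3 and -0.57 (interval from -1.44 to 0.30) for Txn2.

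Txnrd1 (Entrez gene 50493, chr10:82833951-82897724), the reductase that keeps cytosolic thioredoxin reduced and a selenoprotein under NRF2 control, stood apart from this pattern. It had 119.8 and 118 CPM with DMSO, 149 and 222 with Ctrl PIP, 104 and 127 with SGC-CBP30 and 116 and 83.5 with EnPGC-1. The Ctrl PIP libraries were the highest of the 8, and the share of all genes with this order was not computed. The EnPGC-1 libraries lay below both DMSO libraries, beside 9.24% of all genes. The gap was small, 116 CPM at most against 118 at least. The DMSO replicates differed by 1.02-fold. The means were 185 ± 51.7 CPM (SD, n = 2) with Ctrl PIP, 119 ± 1.57 with DMSO, 116 ± 16.7 with SGC-CBP30 and 99.9 ± 23.2 with EnPGC-1. The fitted log2 difference was 0.64 (interval from -0.01 to 1.30) for Ctrl PIP against DMSO. For EnPGC-1 against Ctrl PIP it was -0.89 with an interval from -1.55 to -0.23, an unadjusted p of 0.0156 and an adjusted p of 0.812 in edgeR's quasi-likelihood test. For SGC-CBP30 against Ctrl PIP it was -0.68 with an interval from -1.34 to -0.02, an unadjusted p of 0.0446 and an adjusted p of 0.871 in the same test. The sign of these 3 differences held in all alternative fits, but their size rested on Ctrl PIP replicate 2. Without it they were 0.33 for Ctrl PIP against DMSO, -0.57 for EnPGC-1 against Ctrl PIP and -0.36 for SGC-CBP30 against Ctrl PIP, and without Ctrl PIP replicate 1 they were 0.92, -1.16 and -0.95. Without replicate 2 of both groups EnPGC-1 against Ctrl PIP gave -0.34, and without replicate 1 of both it gave -1.42. EnPGC-1 against DMSO gave -0.25 and SGC-CBP30 against DMSO -0.04, with intervals across 0.

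Nfe2l2 (Entrez gene 18024, chr2:75675513-75704663), the gene for NRF2, had 43.7 and 34.0 CPM with DMSO, 40.6 and 44.8 with Ctrl PIP, 49.7 and 41.8 with SGC-CBP30 and 58.5 and 47.2 with EnPGC-1. Both EnPGC-1 libraries lay above both DMSO libraries, beside 9.83% of all genes, and above both Ctrl PIP libraries, beside 20.7%. The share of genes above all of these libraries at once was not computed. The mean was 52.8 ± 7.98 CPM (SD, n = 2) with EnPGC-1 and 38.9 ± 6.89 with DMSO, a fitted log2 difference of 0.44 with a 95% interval from -0.08 to 0.97 (edgeR's quasi-likelihood test, adjusted p = 0.998). The value stayed above 0 in every alternative fit, from 0.27 to 0.65 as libraries were left out and at 0.51 with offsets for length and GC content. Against Ctrl PIP it was 0.31 (interval from -0.22 to 0.83) and against SGC-CBP30 0.21. NRF2 is regulated mainly by breakdown of the protein, which RNA counts do not show.

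Hmox1 (Entrez gene 15368, chr8:75093618-75100593), which breaks down haem, was the lowest and most variable member. It had 4.37 and 3.52 CPM with DMSO, 2.72 and 4.20 with Ctrl PIP, 2.06 and 2.31 with SGC-CBP30 and 7.97 and 1.39 with EnPGC-1, from 75 to 328 counts per library. Its highest and its lowest library were both EnPGC-1 libraries, 5.72-fold apart. The fitted difference between EnPGC-1 and DMSO was 0.24 with an interval from -1.53 to 2.01, 1.01 without EnPGC-1 replicate 2 and -1.49 without EnPGC-1 replicate 1. The replicate with 7.97 CPM was also the library highest in 3 of the 6 marker sums of other cells: the 7 neutrophil markers summed to 58.5 CPM there and to between 0 and 10.9 elsewhere, the 11 erythroid and platelet markers to 85.9 against 7.91 to 43.2, and the 15 myeloid markers to 27.0 against 9.96 to 18.6. The B cell and CD4 T cell sums were highest in DMSO replicate 1 and the NK cell sum in DMSO replicate 2. Macrophages that clear red cells are known to express Hmox1 strongly. Of the 15 myeloid markers, Marco and Spic were at 0 in all 8 libraries, and the other 13 had counts in at least 1 library. The part of such macrophages in the Hmox1 value was not tested. In bulk RNA, fewer cells of a type and less RNA per cell cannot be told apart. With SGC-CBP30 both Hmox1 values lay below both DMSO values, beside 14.5% of all genes. The fitted difference was -0.85, with an interval from -2.64 to 0.94.

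**Figure D2:**
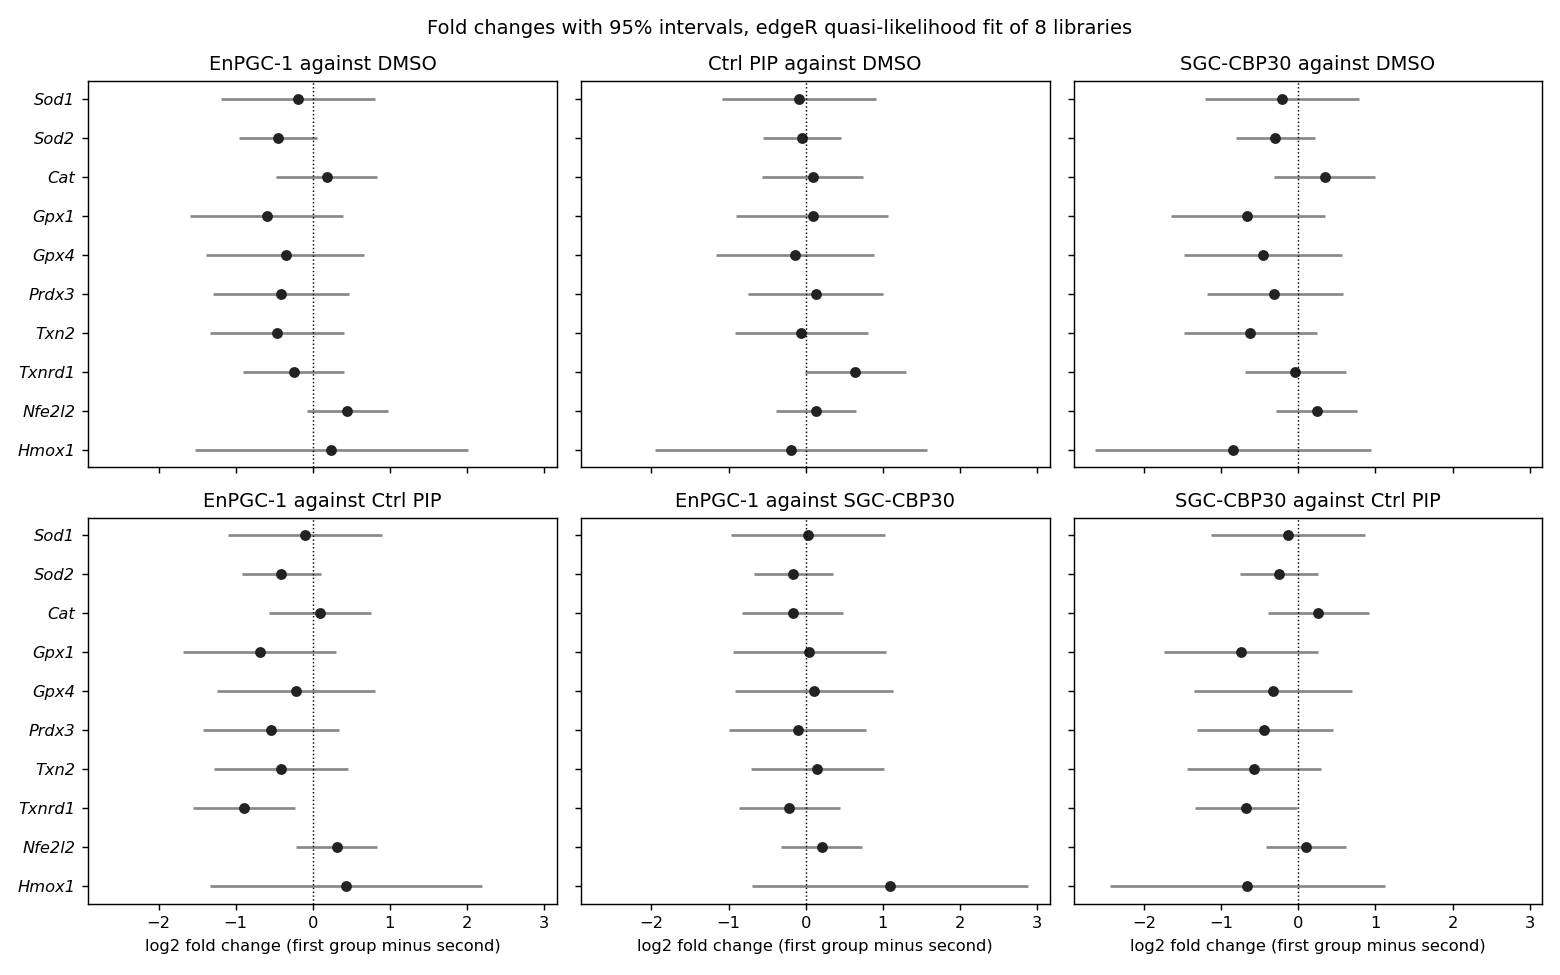
Fitted log2 fold change (x axis, first named group minus second) of each gene (y axis) in the 6 comparisons, with 95% intervals from edgeR's quasi-likelihood fit of all 8 libraries. The intervals cross 0 except for Txnrd1 in EnPGC-1 against Ctrl PIP (-0.89) and in SGC-CBP30 against Ctrl PIP (-0.68), neither of which passed the adjusted threshold.

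Set side by side, the comparisons with DMSO gave 3 of the 10 genes above 0 and 7 below for EnPGC-1 (median log2 difference -0.30, beside 0.00 over all genes tested), 5 above and 5 below for Ctrl PIP (median 0.02 beside -0.05) and 2 above and 8 below for SGC-CBP30 (median -0.30 beside -0.03). These comparisons share the same 2 DMSO libraries. With EnPGC-1, Nfe2l2 alone had both libraries above both DMSO libraries, as 9.83% of all genes did, and Sod2 and Txnrd1 had both below, as 9.24% of all genes did. With Ctrl PIP, Txnrd1 alone had both libraries above DMSO beside 8.34% of all genes, and 0 members had both below beside 7.83%. With SGC-CBP30, 0 members had both libraries above DMSO beside 16.2% of all genes, and Sod2, Txn2 and Hmox1 had both below beside 14.5%. The Txn2 gap was small, since its DMSO replicate 1 had 92.6 CPM and SGC-CBP30 had 91.90 at most.

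Between the compounds, EnPGC-1 against Ctrl PIP gave 3 genes above 0 and 7 below, with a median of -0.31 beside 0.05 over all genes. Nfe2l2 had both EnPGC-1 libraries above both Ctrl PIP libraries, beside 20.7% of all genes, and Sod2, Gpx1, Prdx3, Txn2 and Txnrd1 had both below, beside 21.7%. EnPGC-1 against SGC-CBP30 gave a median of 0.04 beside 0.02, and the largest difference was Hmox1 at 1.09 with an interval from -0.70 to 2.89. In that comparison 0 members had both EnPGC-1 libraries above, beside 13.2% of all genes, and Sod2 and Cat had both below, beside 14.7%. The intervals of EnPGC-1 minus SGC-CBP30 were from -0.67 to 0.35 for Sod2, from -0.94 to 1.04 for Gpx1, from -0.87 to 0.44 for Txnrd1 and from -0.32 to 0.73 for Nfe2l2, so differences of up to these sizes remain possible at doses that the labels do not give.

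SGC-CBP30 against Ctrl PIP was the comparison in which the largest share of genes, members and others, did not overlap. These groups also lay on opposite sides of the length trend, with rho of 0.56 and 0.51 against -0.54 and -0.20. With offsets for length and GC content in the fit of all 8 libraries, Sod1 and Gpx4 changed sign here. Cat had both SGC-CBP30 libraries above both Ctrl PIP libraries, beside 31.5% of all genes. The 8 genes Sod1, Sod2, Gpx1, Gpx4, Prdx3, Txn2, Txnrd1 and Hmox1 had both below, beside 30.2% of all genes, and Nfe2l2 overlapped. The median over the 10 genes was -0.38 beside 0.01 over all genes. Since the replicates of these groups lay close together, a fit of these 4 libraries alone, in which the DMSO and EnPGC-1 spread does not enter, called 3 of the 10 lower with SGC-CBP30: Gpx1 at -0.75 (adjusted p = 0.0133), Txn2 at -0.57 (adjusted p = 0.0192) and Prdx3 at -0.44 (adjusted p = 0.0321), by edgeR's quasi-likelihood test. That fit called 8.51% of its 15660 genes lower. The same fit with offsets for transcript length and GC content, chosen after seeing the data, called Gpx1 at -0.40 (adjusted p = 0.0447), Txn2 at -0.41 (adjusted p = 0.0325) and Sod2 at -0.51 (adjusted p = 0.0252), beside 5.62% of genes called lower, and gave Prdx3 -0.16 (adjusted p = 0.248). Gpx1 and Txn2 were thus called lower in both 4-library fits and in neither fit of all 8 libraries. Over all alternatives run, the adjusted p in this comparison ranged from 0.0133 to 1.00 for Gpx1, from 0.0192 to 1.00 for Txn2, from 0.0321 to 1.00 for Prdx3 and from 0.0252 to 1.00 for Sod2. In EnPGC-1 against DMSO, the fit without replicate 1 of both groups called 2 of the 10 lower, Sod2 at -0.79 (adjusted p = 0.0347) and Gpx1 at -0.81 (adjusted p = 0.0331), beside 4.22% of genes called lower by that fit. It compares 1 library with 1 and assumes that they vary like the Ctrl PIP and SGC-CBP30 libraries, and without replicate 2 of both groups the values were -0.09 and -0.19. There the adjusted p over all alternatives run ranged from 0.0347 to 1.00 for Sod2 and from 0.0331 to 1.00 for Gpx1.

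A block of 5 genes varied together. Sod1 (641 bases), Gpx4 (995), Gpx1 (1072), Prdx3 (1478) and Txn2 (2049) had Pearson correlations of log2 CPM with each other from 0.83 to 0.98 over the 8 libraries, which share depth and preparation between genes, and each was 1.95 to 2.37 times as high in DMSO replicate 2 as in replicate 1. Their correlations over the 8 libraries with the library's length trend were -0.83 for Sod1, -0.89 for Gpx4, -0.88 for Gpx1, -0.85 for Prdx3 and -0.91 for Txn2. Cat (2613 bases) went the other way, with 0.84, and Nfe2l2 (2475 bases) had 0.55. Sod2 (5861 bases), the longest, had -0.38, and it correlated at 0.75 with Gpx1 and 0.70 with Txn2. Txnrd1 (3622 bases), at -0.09, and Hmox1 (1569 bases), at 0.31, followed the trend least. Hmox1, although shorter than Txn2, had correlations from -0.62 to -0.18 with the 5 genes. The member most like Gpx1 was Txn2 (r = 0.98). The most alike genes were searched among the tested genes with a mean of at least 5 CPM. They were Phc2 for Sod1 (r = 0.993), Aarsd1 for Gpx1 (0.997), Tmem107 for Gpx4 (0.996), Lsm12 for Prdx3 (0.997) and Npm3 for Txn2 (0.998). For the other members they were Mettl25 for Sod2 (0.975), Tgfbr1 for Cat (0.989), Rtn4rl1 for Nfe2l2 (0.976) and Nol8 for Hmox1 (0.986). All values are over 8 libraries, and each is the highest of that search.

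**Figure D3:**
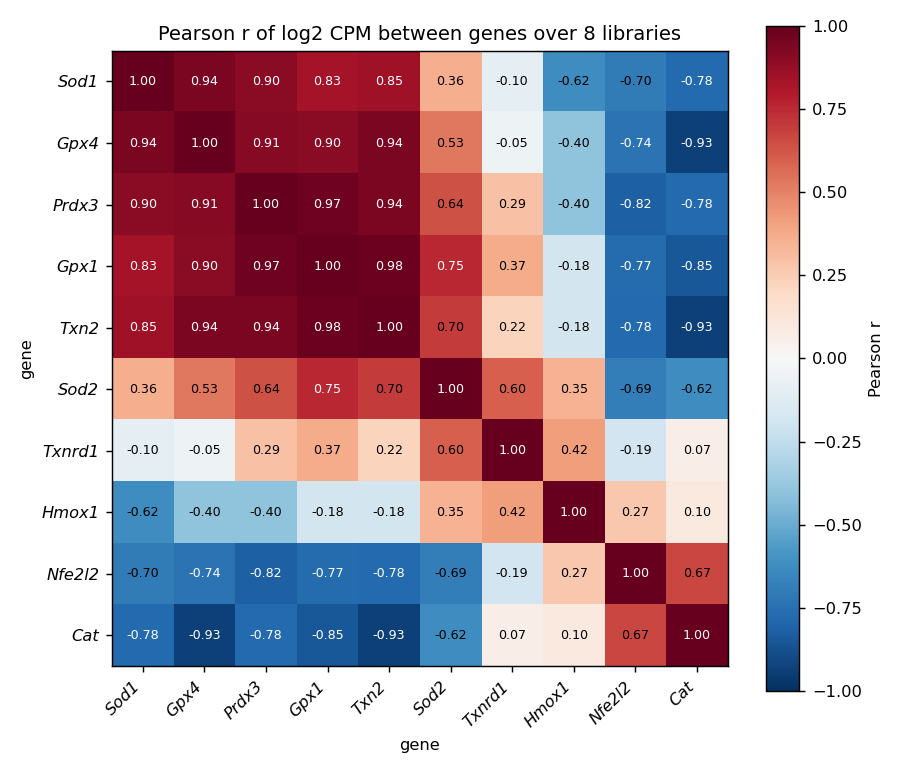
Pearson r of log2 CPM between each pair of genes (both axes) over the 8 libraries, from -1 (blue) to 1 (red). Sod1, Gpx4, Prdx3, Gpx1 and Txn2 form one block of r from 0.83 to 0.98, and Cat is opposed to all 5.

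Removing each library's trend with transcript length and GC content from the fit of all 8 libraries moved most of the genes of this block toward 0 or past it. In EnPGC-1 against DMSO, Gpx1 went from -0.60 to -0.26, Gpx4 from -0.35 to -0.02, Prdx3 from -0.41 to -0.19 and Sod1 from -0.19 to 0.09. Txn2 moved less, from -0.47 to -0.34, Txnrd1 stayed at -0.25, Nfe2l2 went from 0.44 to 0.51 and Sod2 from -0.45 to -0.63. Hmox1 went from 0.24 to 0.52 and Cat from 0.18 to 0.22. The fitted length and GC trend of Cat was -0.06 in DMSO replicate 1 and 0.12 in replicate 2 on the log2 scale. Its signs there were those of the block, although the levels of Cat went the other way. In SGC-CBP30 against Ctrl PIP, Gpx1 went from -0.74 to -0.39, Gpx4 from -0.33 to 0.03, Sod1 from -0.13 to 0.25, Prdx3 from -0.44 to -0.15 and Txn2 from -0.57 to -0.41, while Txnrd1 went from -0.68 to -0.71. With these offsets 0 of the 10 genes were called in each comparison of the 8 libraries, as without them.

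**Figure D4:**
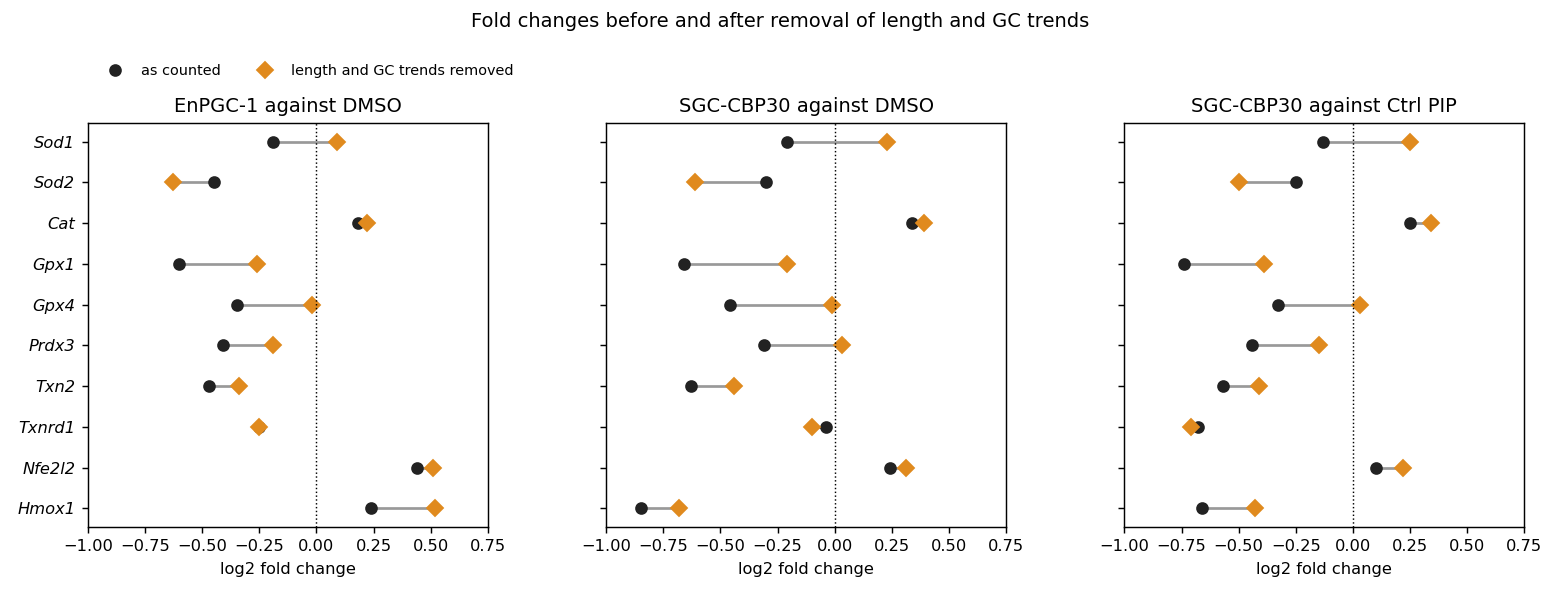
Log2 fold change (x axis) of each gene (y axis) as counted (black circles) and with each library's length and GC trends removed (orange diamonds), in 3 comparisons of the fit of all 8 libraries. Gpx4 moves to about 0 in each panel and Sod1 across 0, while Sod2, Txn2, Gpx1 and Txnrd1 stay below 0. In SGC-CBP30 against DMSO, Txnrd1 is close to 0, at -0.10 with the trends removed.

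Other genes of the same pathways were taken from 11 fixed lists, and edgeR called 0 of them in all 6 comparisons. Of 14 further peroxiredoxins, thioredoxins and partners, 12 were below 0 in EnPGC-1 against DMSO and 13 in SGC-CBP30 against DMSO, with medians of -0.40 and -0.38. DMSO replicate 2 was the highest of the 8 libraries for 10 of these 14 genes, beside 28.3% of all genes, and Txn1, the cytosolic thioredoxin, had 174 and 649 CPM in the DMSO replicates (named after its values were seen). Txnrd2, the mitochondrial thioredoxin reductase that recharges TXN2, had 12.7 and 23.6 CPM with DMSO, 10.2 and 14.3 with EnPGC-1, and 12.5 and 10.6 with SGC-CBP30, with differences of -0.57 and -0.65. Txnip, which binds and inhibits thioredoxin, had 1340.2 and 622 CPM with DMSO and 676 and 607 with Ctrl PIP. Of 15 genes of glutathione synthesis and recycling, 8 were below 0 with EnPGC-1 and 13 with SGC-CBP30, and 8 were highest in DMSO replicate 2. Gsr, glutathione reductase, was named for the smallest p of this list in EnPGC-1 against DMSO and in Ctrl PIP against DMSO. It had 39.6 and 47.8 CPM with DMSO, 35.7 and 30.5 with EnPGC-1, and 51.3 and 55.6 with Ctrl PIP. Both EnPGC-1 libraries lay below DMSO, beside 9.24% of all genes, and both Ctrl PIP libraries above, beside 8.34%. Txnrd1 had the same arrangement, with a small gap between EnPGC-1 and DMSO. Of 14 glutathione peroxidases and transferases 9 were below 0 with EnPGC-1 and 8 were highest in DMSO replicate 2, and Gsto1 had a difference of -0.68 (interval from -1.52 to 0.16).

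The NRF2 pathway around Nfe2l2 gave no common direction. Of 21 NRF2 targets outside the members, 12 were above and 9 below 0 in EnPGC-1 against DMSO (median 0.08), 10 and 11 under SGC-CBP30, and 14 and 7 under Ctrl PIP. Blvrb, the gene for biliverdin reductase B, had 10.9 and 9.58 CPM with EnPGC-1, 9.04 and 9.46 with SGC-CBP30, and 7.18 and 6.12 with DMSO. Its fitted differences were 0.62 (interval from -0.04 to 1.28) and 0.48. Keap1, which marks NRF2 for breakdown, had 78.1 and 87.8 CPM with EnPGC-1 and 78.2 and 108.6 with DMSO, and its difference was -0.17. Of 14 NRF2 regulators and partners 8 were above 0 in that comparison, with a median of 0.04.

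Among 14 genes of haem and iron handling, Tfrc, the transferrin receptor that brings in iron, had the smallest p in EnPGC-1 against DMSO. It had 195 and 187 CPM with EnPGC-1 against 292 and 289 with DMSO, a log2 difference of -0.61 (interval from -1.11 to -0.10, unadjusted p = 0.0252 and adjusted p = 0.998 in edgeR's quasi-likelihood test). With Ctrl PIP it had 346 and 393 CPM, above both DMSO libraries, beside 8.34% of all genes. With SGC-CBP30 it had 206 and 274 CPM, below both DMSO libraries, beside 14.5% of all genes. Of 6 further genes known to guard against or to feed ferroptosis, 5 were below 0 with EnPGC-1, among them Coq7, an enzyme of ubiquinone synthesis, with 5.34 and 9.84 CPM against 10.4 and 24.6 (difference -1.20, interval from -2.38 to -0.03). Of 8 genes of selenoprotein synthesis, on which GPX1, GPX4 and TXNRD1 depend, 4 were above and 4 below 0 in EnPGC-1 against DMSO. Of 12 other selenoproteins, 5 were above and 7 below. The 1 tested gene of superoxide dismutase handling besides the members, the copper chaperone Ccs, had 56.6 and 57.9 CPM with EnPGC-1 between its DMSO values of 67.6 and 44.4. Of 8 superoxide producers 5 were above 0 with EnPGC-1, and Ncf4, a subunit of the phagocyte NADPH oxidase, had 43.2 and 37.9 CPM with SGC-CBP30 against 60.4 and 58.9 with DMSO (difference -0.56, unadjusted p = 0.0394 and adjusted p = 0.943 in edgeR's quasi-likelihood test).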

How the data were processed

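RNA was extracted with a column kit and made into strand-marking poly(A) libraries, per the labels' protocols. The authors deposited whole-number counts per gene under Entrez IDs, 1 column per library, and regularized log2 values of 16442 genes, whose header names stand 1 column left of their values. Per the submitters' processing notes, which give no roles, the tools include HISAT2, StringTie and DESeq2 and the build is mm10. For the counter, strand setting and annotation, nothing is given in the sources used here, so overlapping, antisense or near-identical genes may share counts. There were 0 columns of other samples.

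Counts were tested with edgeR 4.0.16 (R 4.3.3; TMM, filterByExpr, robust glmQLFit, glmQLFTest) on all 8 libraries with group means and 4 residual degrees of freedom, two-sided, adjusted by Benjamini-Hochberg over 16750 genes. For log2 CPM the prior count was 2. Transcript length and GC content came from GENCODE's longest protein-coding transcript on GRCm38 (92.2% of tested genes), and offsets are smooth trends on both (mgcv 1.9.3). Symbols and positions came from RefSeq (99.8% of IDs). The scripts were tested on simulated data.

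The members and lists were chosen with earlier results of these data known. All members were named; from each wider list the rule took the 2 smallest p in EnPGC-1 against DMSO and the smallest in each other comparison with DMSO, at 5 CPM or more, and the text gives some of them. Alternatives were DESeq2 size factors, DESeq2 1.42.0, no count filter, a replicate block, only the 4 libraries compared, limma 3.58.1 on the deposited log2 values, libraries left out, a minimum log2 fold change of 1, length and GC offsets, offsets with the block, and CPM in place of CPM per kb. Offsets with only the 4 SGC-CBP30 and Ctrl PIP libraries were added after seeing the data. The gene most like Txnrd1 is not reported here.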

Additional observations from a re-analysis of the deposited data

How the results depend on the processing

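The number of the 10 genes called was 0 under DESeq2 size factors, DESeq2's Wald test, no filter on low counts, the replicate block, a minimum log2 fold change of 1, limma on the deposited log2 values and the offsets with and without the block, in all 6 comparisons. It was 3 in SGC-CBP30 against Ctrl PIP with only the 4 libraries and 3 there with only the 4 libraries and the offsets, where fewer libraries set the spread. In EnPGC-1 against DMSO it ranged from 0 to 2 as libraries were left out, with 2 without replicate 1 of both groups. Over all genes, DESeq2's Wald test called 5 higher and 13 lower in EnPGC-1 against DMSO, 1 and 1 in Ctrl PIP against DMSO, 7 and 56 in SGC-CBP30 against DMSO, 12 and 26 in EnPGC-1 against Ctrl PIP, 14 and 2 in EnPGC-1 against SGC-CBP30 and 7 and 24 in SGC-CBP30 against Ctrl PIP, where edgeR called 0. The fit of 4 libraries called 1138 higher and 1332 lower in SGC-CBP30 against Ctrl PIP, and 615 and 880 with the offsets. The fit without replicate 1 of both groups called 377 higher and 718 lower in EnPGC-1 against DMSO.

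Of 490 fold changes under alternatives that kept the libraries of the comparison, 27 had the other sign, and 23 of the 60 fold changes kept theirs under every alternative run. With the offsets, and with the offsets and the replicate block, Sod1 became 0.09 and 0.09 in EnPGC-1 against DMSO, 0.23 and 0.23 in SGC-CBP30 against DMSO, 0.11 and 0.11 in EnPGC-1 against Ctrl PIP, -0.14 and -0.15 in EnPGC-1 against SGC-CBP30, and 0.25 and 0.25 in SGC-CBP30 against Ctrl PIP. Gpx4 became 0.01 and 0.01 in EnPGC-1 against Ctrl PIP, -0.01 and -0.02 in EnPGC-1 against SGC-CBP30, and 0.03 and 0.03 in SGC-CBP30 against Ctrl PIP. Prdx3 became 0.03 and 0.04 in SGC-CBP30 against DMSO, and Gpx1 became -0.05 and -0.05 in EnPGC-1 against SGC-CBP30. With the offsets and only the 4 libraries, SGC-CBP30 against Ctrl PIP gave 0.25 for Sod1 and 0.02 for Gpx4. On the deposited log2 values limma gave -0.01 for Hmox1 in EnPGC-1 against DMSO, 0.01 for Txn2 in Ctrl PIP against DMSO and -0.01 for Sod1 in EnPGC-1 against SGC-CBP30. The replicate block gave 0.01 for Txn2 in Ctrl PIP against DMSO and -0.05 for Sod1 in EnPGC-1 against SGC-CBP30. The cause of these changes was not tested.

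Leaving out libraries gave the other sign in 69 of 360 values and in 35 fold changes. In EnPGC-1 against DMSO these were Sod1 from -0.75 to 0.41, Cat from -0.15 to 0.61, Gpx1 from -1.08 to 0.15, Gpx4 from -0.82 to 0.37, Prdx3 from -0.83 to 0.15, Txn2 from -0.88 to 0.14 and Hmox1 from -1.49 to 1.01. In Ctrl PIP against DMSO these were Sod1 from -0.52 to 0.55, Sod2 from -0.24 to 0.20, Cat from -0.37 to 0.65, Gpx1 from -0.39 to 0.85, Gpx4 from -0.78 to 0.76, Prdx3 from -0.29 to 0.73, Txn2 from -0.53 to 0.62, Nfe2l2 from -0.10 to 0.42 and Hmox1 from -0.68 to 0.28. In SGC-CBP30 against DMSO these were Sod1 from -0.65 to 0.40, Cat from -0.04 to 0.82, Gpx1 from -1.15 to 0.10, Gpx4 from -0.98 to 0.29, Prdx3 from -0.70 to 0.25 and Txnrd1 from -0.20 to 0.12. In EnPGC-1 against Ctrl PIP these were Sod1 from -0.68 to 0.32, Cat from -0.16 to 0.34, Gpx4 from -0.79 to 0.28 and Hmox1 from -1.60 to 1.56. In EnPGC-1 against SGC-CBP30 these were Sod1 from -0.54 to 0.45, Cat from -0.34 to 0.01, Gpx1 from -0.30 to 0.34, Gpx4 from -0.33 to 0.47, Prdx3 from -0.52 to 0.22, Txn2 from -0.15 to 0.41, Txnrd1 from -0.61 to 0.17 and Hmox1 from -0.73 to 1.96. In SGC-CBP30 against Ctrl PIP this was Nfe2l2 from -0.11 to 0.29.

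The labels give the groups the same replicate numbers but do not say that a number marks an animal or a day. Over 16750 genes, the differences between replicates 1 and 2 correlated at 0.67 between DMSO and EnPGC-1, -0.25 between DMSO and Ctrl PIP, 0.23 between DMSO and SGC-CBP30, -0.23 between EnPGC-1 and Ctrl PIP, 0.23 between EnPGC-1 and SGC-CBP30 and -0.04 between Ctrl PIP and SGC-CBP30, so the numbers were not shown to pair the samples. The replicate block called 0 of the 10 genes, as the fit without it did. By CPM in place of CPM per kb, Txnrd1 moved from rank 6 to 3 of the 10 genes, Prdx3 from 4 to 7, Gpx4 from 3 to 4 and Cat from 7 to 6, and the other 6 kept their rank.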

Other observations

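Among the 21 NRF2 targets outside the 10 genes, 10 had their highest level of the 8 libraries in EnPGC-1 replicate 1, where 23.8% of all genes tested had theirs, and 0 in EnPGC-1 replicate 2, where 10.7% of all genes had theirs. This was noticed after the values were seen. Nqo1, a quinone reductase, had 7.48 CPM in EnPGC-1 replicate 1, 1.39 in replicate 2 and 2.28 and 0.751 with DMSO. Slc7a11, the cystine carrier that feeds glutathione synthesis, had 5.44 CPM in EnPGC-1 replicate 1 and 0.547 at most in each of the other 7 libraries. Srxn1, the sulfiredoxin that restores oxidized peroxiredoxins, had 2.99 CPM there and 1.83 at most elsewhere, and Gclm and Gclc, the subunits of the enzyme that starts glutathione synthesis, had 43.9 and 77.0 CPM there and 33.0 and 62.2 at most elsewhere. Other targets of the list had their lowest level of the 8 libraries in EnPGC-1 replicate 1. Among them were Txn1 with 126 CPM (174 at least elsewhere), Tkt with 261 (363 at least) and Pgd with 102 (104 at least). Hmox1 was highest in the same library. It is also the library with the highest summed neutrophil, erythroid and myeloid markers, and the part of those cells in these values was not tested.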
